A study of Mus musculus with 6 samples.

Results

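The polyamine metabolism genes are a family of 10 genes of the mouse. They encode ornithine decarboxylase (Odc1), its antizymes (Oaz1, Oaz2) and antizyme inhibitor (Azin1), the enzymes that make spermidine and spermine (Amd1, Srm, Sms) and those that break them down (Sat1, Smox, Paox). The rows were taken by symbol from a table of 46095 genes, which held all 10. The family was grouped by function, but it was selected on results already known for the same comparison, in which Odc1 was among the genes with the clearest difference. The fold changes below are therefore a description of these 6 libraries and not an independent test of the family.

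BV2, a microglial line derived from mouse brain and immortalized with viral oncogenes, was either left without treatment (CON group, 3 libraries) or incubated with recombinant sTREM-1, the soluble form of the myeloid receptor TREM-1, at 1 μg/mL for 6 h (sTREM-1 group, 3 libraries). The deposited values were whole-number read counts per gene symbol, which summed to between 40070633 and 45877107 per library. Levels are given here as CPM, the reads of a gene relative to the TMM-scaled total of its library, with ± for the SD over the 3 libraries of a group (n = 3), and a gene was called when its Benjamini-Hochberg adjusted p in the edgeR quasi-likelihood test over all 14120 tested genes was under 0.05. The labels do not say whether the libraries of a group came from separate cultures, so the test measures the spread between these libraries, which may be technical. Of the 10 microglia and macrophage markers examined, 9 were above 1 CPM, among them Csf1r, Itgam and Tyrobp, while Aif1 was listed at 0 in every library. The summed level of these 10 was 5836 to 5900 CPM in the CON libraries and 6113 to 6255 CPM after sTREM-1. Csf1r differed most in CPM, with means of 521 in the CON group and 753 after sTREM-1. Itgam, Ptprc, Adgre1, Fcgr3 and Spi1 were also higher in every sTREM-1 library. Tyrobp was lower in every sTREM-1 library, with means of 300 and 293 CPM. Cd68 and Lyz2 overlapped between groups, so the sum is not a common rise of the markers. Of 5 homeostatic markers, P2ry12, Tmem119 and Cx3cr1 had means below 2 CPM in both groups and Sall1 was listed at 0. The summed neuron, astrocyte and fibroblast markers stayed under 1 CPM in every library, and the oligodendrocyte markers summed to 7.29 to 7.91 CPM in the CON libraries and 5.58 to 6.70 CPM after sTREM-1, with Mog at 0. The part of these differences in the results below was not tested.

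Polyamines are small, positively charged molecules that bind RNA and DNA and that growing cells need. Ornithine decarboxylase makes putrescine from ornithine and is the regulated entry step. Spermidine synthase and spermine synthase then add aminopropyl groups, which come from S-adenosylmethionine through the enzyme encoded by Amd1. When polyamines are abundant, antizyme is made, binds ornithine decarboxylase and directs it to the proteasome, and the antizyme inhibitor encoded by Azin1 binds antizyme in its place. In macrophages and microglia the pathway is known as a branch of arginine use that competes with nitric oxide synthesis.

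Antizyme is controlled at translation, which read counts do not show. Polyamines cause the ribosome to shift frame at the end of a short first reading frame, and only then is the whole antizyme made. The sites of both antizyme genes are shown because a count of Oaz1 or Oaz2 reads is a count of mRNA upstream of this control. They were read from GENCODE M21 transcripts of mouse build GRCm38, on the plus strand, at chr10:80828272-80828319 for Oaz1 and at chr9:65686249-65686296 for Oaz2, within the coding sequence. Capitals mark the last sense codon and the stop codon of the first frame.

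Oaz1: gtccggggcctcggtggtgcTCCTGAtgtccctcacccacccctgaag

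Oaz2: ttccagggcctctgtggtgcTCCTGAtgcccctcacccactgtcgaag

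The sites of the antizyme genes matched at 40 of 48 bases, with the capitals the same in both.

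Odc1 was lower in every sTREM-1 library than in every CON library. It had 573, 545 and 572 CPM in CON replicates 1, 2 and 3 and 342, 334 and 354 CPM in sTREM-1 replicates 1, 2 and 3. The replicates of each group lay close together and the difference between the group means was more than 10 times the SD of either, with means of 563 ± 16.3 CPM in the CON group and 343 ± 9.66 CPM in the sTREM-1 group. The level after sTREM-1 was 0.609 times that of the CON group (95% interval 0.588 to 0.632), a log2 fold change of -0.71 (standard error 0.03). Behind these values were 22336 to 23481 reads per CON library and 14027 to 15623 per sTREM-1 library. In bulk libraries, fewer cells expressing a gene and less RNA per cell cannot be told apart.

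Odc1 stood far from most genes of similar abundance. Of the 2417 tested genes with a mean of at least 100 CPM, only Il1rn had a lower log2 fold change (-0.84). Over all 14120 tested genes, 338 had a lower log2 fold change than Odc1, and 3.82% had a larger absolute log2 fold change. The genes whose levels relative to the CON mean lay nearest to those of Odc1 over the 6 libraries were Ccl7, Dok7, Rps6ka2, Hgsnat and Nupr1, out of 9053 tested genes of at least 10 CPM, with root mean square differences of 0.0486 to 0.0676 on the log2 CPM scale. Ccl7, a chemokine gene, had 368 ± 7.31 CPM in the CON group and 228 ± 10.3 CPM after sTREM-1, and its log2 fold change was -0.69.

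**Figure D1:**
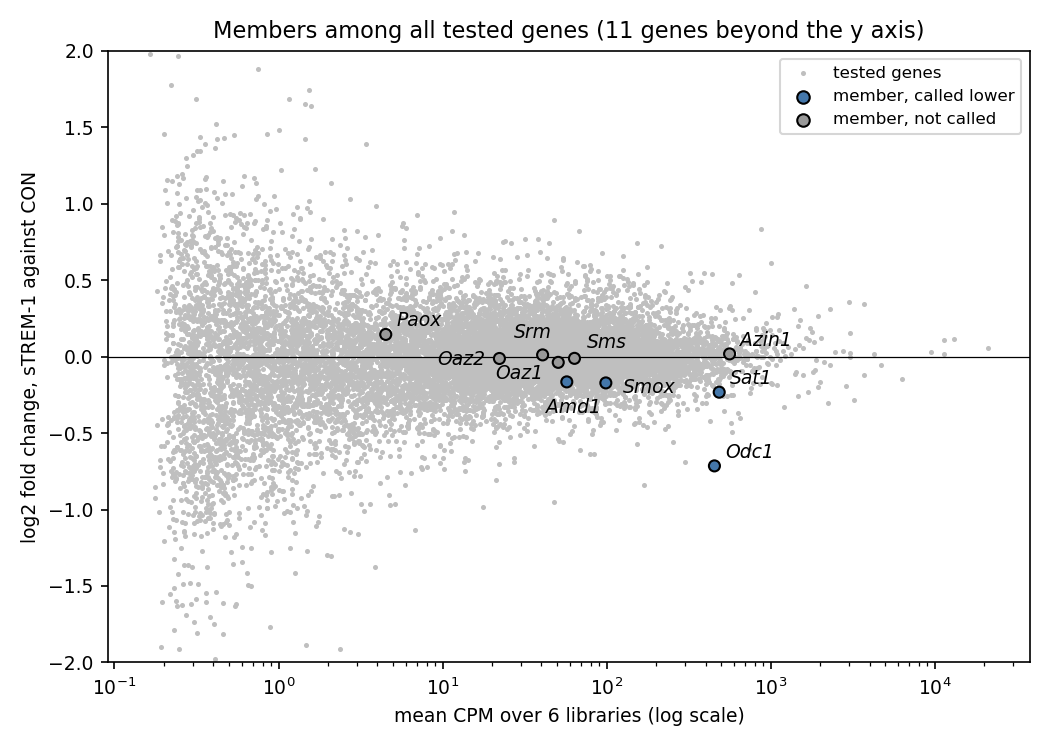
Each point is a tested gene, with its mean CPM over the 6 libraries on a log x axis and its log2 fold change of sTREM-1 against CON on the y axis. The 10 polyamine genes are outlined and named, in blue where called lower and in grey where not called. Odc1, at a mean of 453 CPM and a log2 fold change of -0.71, lies below nearly all genes of its abundance, while the others lie between -0.23 and 0.14, and 11 genes fall outside the y axis.

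Of the 10 members, 4 were called lower (Odc1, Amd1, Sat1 and Smox) and 0 were called higher, while 30.5% of all tested genes were called, 14.1% lower and 16.5% higher. The groups did not overlap in CPM for the same 4 members, as was the case for 40.7% of all tested genes. The median log2 fold change of the members was -0.03, against -0.0017 for all tested genes. All 10 members passed the filter on low counts. Since the members were selected on this comparison, no inference is drawn from these shares.

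**Figure D2:**
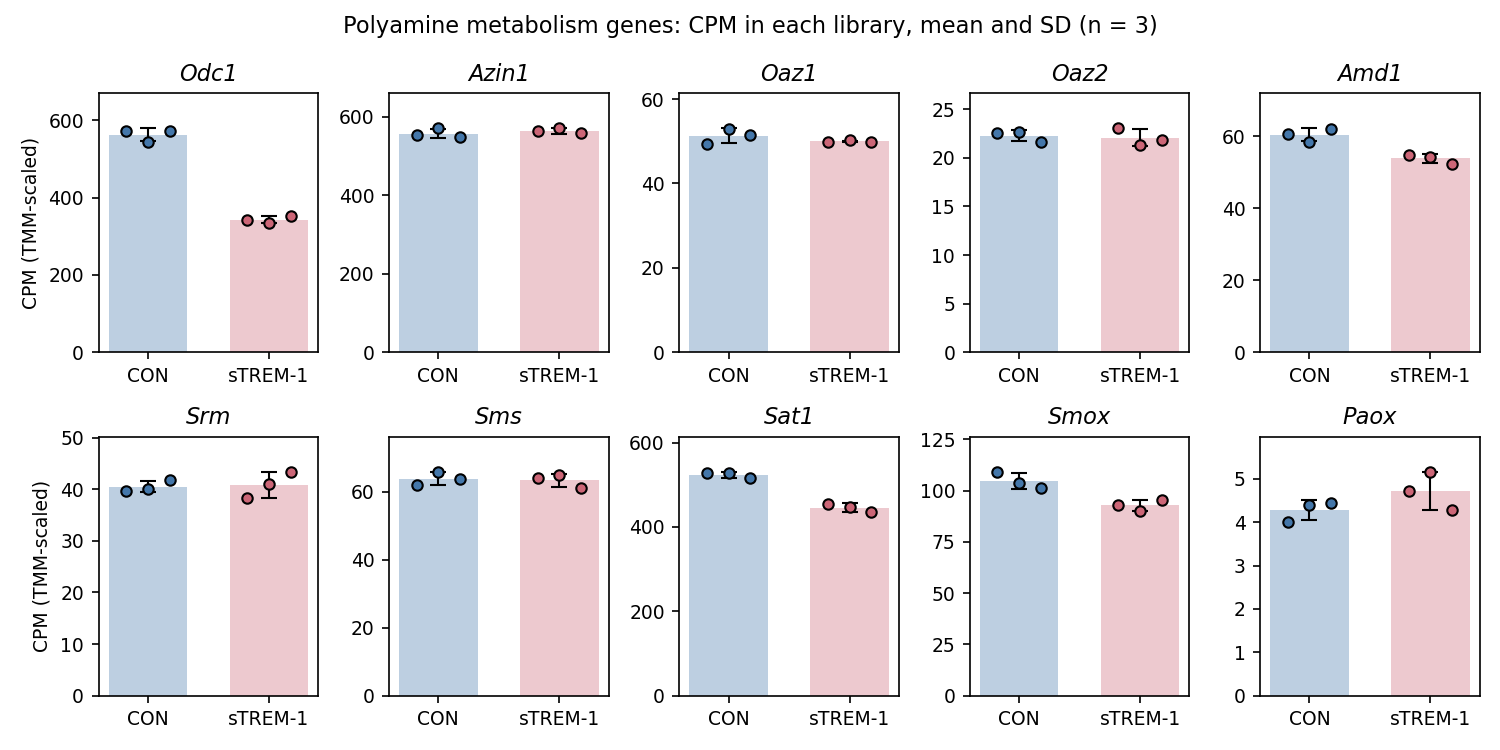
TMM-scaled CPM of each polyamine gene in each library. Points are libraries, bars are group means and error bars are the SD of 3 libraries, with CON in blue and sTREM-1 in red, and each panel has its own y axis from 0. The sTREM-1 points of Odc1, Amd1, Sat1 and Smox all lie below the CON points, and those of the other 6 genes overlap.

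The regulators of ornithine decarboxylase did not move with Odc1. Azin1, which encodes the antizyme inhibitor and is a catalytically inactive relative of the enzyme, had 553, 571 and 548 CPM in the CON libraries and 564, 571 and 558 CPM after sTREM-1. The groups overlapped, and the fold change of 1.01 had a 95% interval from 0.980 to 1.05. Oaz1, the main antizyme gene, had 49.4, 52.9 and 51.6 CPM in the CON libraries and 49.9, 50.2 and 49.9 CPM after sTREM-1. The sTREM-1 values lay inside the range of the CON values, with a fold change of 0.974 (95% interval 0.917 to 1.03). Oaz2, a second antizyme gene, had 22.5, 22.7 and 21.6 CPM in the CON libraries and 23.0, 21.3 and 21.9 CPM after sTREM-1, a fold change of 0.991 (95% interval 0.906 to 1.08). None of these 3 genes was called, and the 95% intervals of all 3 lay above that of Odc1.

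The enzymes of spermidine and spermine synthesis differed among themselves. Amd1 encodes adenosylmethionine decarboxylase, which makes the donor of the aminopropyl group. It had 60.7, 58.4 and 62.0 CPM in the CON libraries and 54.7, 54.3 and 52.4 CPM after sTREM-1. Every sTREM-1 library was below every CON library, and the level fell by 10.8%, a log2 fold change of -0.17 (standard error 0.04). Srm, the gene of spermidine synthase, had 39.7, 40.1 and 41.8 CPM in the CON libraries and 38.2, 40.9 and 43.3 CPM after sTREM-1. Sms, the gene of spermine synthase, had 62.1, 65.9 and 63.6 CPM in the CON libraries and 64.1, 64.9 and 61.1 CPM after sTREM-1. Both synthase genes overlapped between groups and were not called, with fold changes of 1.01 (95% interval 0.939 to 1.08) for Srm and 0.992 (95% interval 0.938 to 1.05) for Sms.

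Of the genes of polyamine breakdown, Sat1 and Smox were lower and Paox was not called. Sat1 encodes spermidine/spermine acetyltransferase, which marks polyamines for export or oxidation. It had 529, 527 and 516 CPM in the CON libraries and 455, 448 and 434 CPM after sTREM-1. The groups were apart, with means of 524 ± 6.93 and 446 ± 10.5 CPM, and the level fell by 14.9%, a log2 fold change of -0.23 (standard error 0.02). Smox encodes spermine oxidase, which turns spermine back into spermidine and releases hydrogen peroxide. It had 109, 104 and 101 CPM in the CON libraries and 92.9, 90.2 and 95.6 CPM after sTREM-1, and fell by 11.2%, a log2 fold change of -0.17 (standard error 0.04). Every sTREM-1 library of Smox was again below every CON library. Paox, the peroxisomal oxidase of acetylated polyamines, had only 164 to 220 reads per library, with 4.005, 4.39 and 4.43 CPM in the CON libraries against 4.73, 5.16 and 4.28 CPM after sTREM-1. Its groups overlapped, and the fold change of 1.11 had a 95% interval from 0.911 to 1.34, the widest of the family.

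The reads of Odc1 were also set against those of other members within each library, a comparison that does not depend on the scaling of the libraries. Per read of Azin1 there were 1.04, 0.953 and 1.04 reads of Odc1 in the CON libraries and 0.607, 0.585 and 0.634 after sTREM-1. Per read of Oaz1 there were 11.6, 10.3 and 11.1 reads of Odc1 in the CON libraries and 6.86, 6.66 and 7.09 after sTREM-1. For both ratios the groups were apart. Oaz1 is abundant in most cells and had few reads in this table, and whether the counting lowered them was not tested, so the size of this ratio is not read as a ratio of mRNA levels. The ratio of Odc1 to Srm went from 13.9 ± 0.472 to 8.42 ± 0.451 and that of Odc1 to Sms from 8.83 ± 0.506 to 5.43 ± 0.327. The ratio to Sat1, which was itself lower, went from 1.08 ± 0.0383 to 0.771 ± 0.0375. On the log2 scale these differences were -0.73 for Azin1, -0.68 for Oaz1, -0.73 for Srm, -0.70 for Sms and -0.48 for Sat1.

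**Figure D3:**
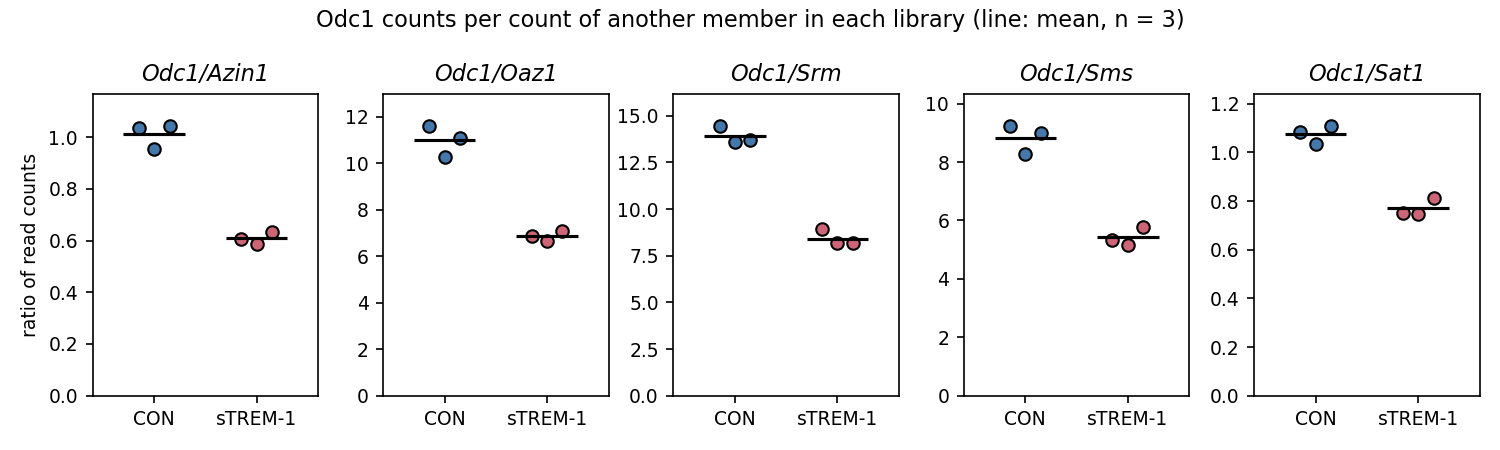
Reads of Odc1 divided by reads of Azin1, Oaz1, Srm, Sms or Sat1 within each library, on a linear y axis from 0. Points are libraries and lines are the means of 3 libraries, with CON in blue and sTREM-1 in red. In each of the 5 panels all sTREM-1 points lie below all CON points, and the gap is smallest for Sat1, where the mean went from 1.08 to 0.771.

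Levels of different genes were compared per kilobase of the principal GENCODE transcript, as CPM per kb. In the CON group Sat1 had the highest level with 451 ± 5.97, followed by Odc1 with 255 ± 7.39 and Azin1 with 114 ± 2.51 CPM per kb. Lower levels were found for Oaz1 (49.1 ± 1.73), Smox (46.1 ± 1.79), Srm (30.3 ± 0.835), Amd1 (18.8 ± 0.575), Sms (17.2 ± 0.517), Oaz2 (12.1 ± 0.310) and Paox (0.918 ± 0.0506). Among neighbours in this order, Oaz1 and Smox overlapped, with 47.3 to 50.7 and 44.6 to 48.1 CPM per kb, and the other neighbours did not. The places of Oaz1, whose reads may be undercounted as said above, and of Amd1, whose copies hold 32.0 to 37.9% of its count, depend on how reads were assigned. After sTREM-1, Amd1 (16.8 ± 0.387) and Sms (17.0 ± 0.541) overlapped, and with the reads of its copies left out of Amd1 no order is read between them in either group. Oaz1 and Smox no longer overlapped. The libraries of Odc1 after sTREM-1, with 151 to 160 CPM per kb, remained above those of Azin1, with 115 to 117 CPM per kb.

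Some members have near-identical copies elsewhere in the genome, between which reads may have been split. The annotated transcript of Odc1 on chromosome 12 (GRCm38, 17544794 to 17551505) shares 30.5% of its 75-base stretches with transcripts of 12 other annotated genes. The 7 of these with counts together held 1.87 to 2.26% of the Odc1 count per library, and with them joined to Odc1 its log2 fold change was -0.72. For Oaz1, 47.5% of the stretches occur in the pseudogene Oaz1-ps, which had 24 to 59 reads per library against 1978 to 2279 for Oaz1. Amd1 was the member most exposed, since the genes that share stretches with it held 32.0 to 37.9% of its count, with 79.6% of its stretches shared with Amd2, a copy on the same chromosome. Amd2 had 9.43, 7.22 and 7.86 CPM in the CON libraries and 8.36, 6.45 and 7.21 CPM after sTREM-1, and was not called. With Amd2 and the Amd pseudogenes joined to Amd1 the log2 fold change was -0.16, against -0.17 for Amd1 alone. Paox shares 26.4% of its stretches with Gm19680 and overlaps Echs1 on the opposite strand, and Azin1 overlaps an antisense transcript, so reads of each overlapping pair cannot be told apart without strand. With Gm19680 joined to Paox the log2 fold change was 0.12, against 0.14 for Paox alone, and these joined values were added after the data were seen. Azin1, Srm and Smox share none with another annotated gene.

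The DNA before Odc1 is shown because Odc1 had the largest difference of the family. The 171 bases lie at chr12:17544623-17544793 on the plus strand, before the first base of the gene in GENCODE M21. They come from the RefSeq promoter windows of GRCm38.p6, which matched 8 of the 10 members. The RefSeq window of Odc1 runs on to 17544922, and the RefSeq start of the gene may differ from that of GENCODE. Capitals mark GC boxes (GGGCGG on either strand), the letters bound by factors of the SP family.

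Odc1 upstream: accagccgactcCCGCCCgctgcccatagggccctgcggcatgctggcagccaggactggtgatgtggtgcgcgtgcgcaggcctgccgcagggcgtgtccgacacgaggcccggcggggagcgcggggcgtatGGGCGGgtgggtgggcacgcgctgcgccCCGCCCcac

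GC boxes were common near the starts of the members. Of the 10 windows of the 8 matched members, 8 held at least 1, against 35.7% of all 32851 windows of the same length, and the whole window of Odc1 held 4, of which 3 lie in the bases shown, and had a GC content of 78%. The E-box CACGTG, the letters bound by MYC and MAX, was found in 1 of the 10 windows, at Sms, against 7.15% of all windows. The cAMP response element core TGACGTCA was in none of them, against 1.79% of all windows, and the TATA box TATAAA was in 1, at Oaz1, against 13.6%. GC boxes were found at all 4 members that were lower and also at Oaz2, Paox and Sms, which were not called. Paox and Sms had more than 1 window each, and those of Paox overlapped. The windows of all genes were not matched to those of the members by expression or GC content. No excess particular to the members is therefore read from these shares. A match describes letters within 300 bases only, and binding was not measured. Bases outside the windows, such as the first intron of Odc1, were not searched for motifs. The lack of an E-box in its window therefore does not show that Odc1 has none.

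Genes that feed, carry or use polyamines were examined from lists grouped by function, of 52 genes in all. These lists were chosen with earlier results of these data known, so their calls are a description and not an independent test. Of the 52 genes, 36 were tested, and 12 were called higher and 6 lower. Among all tested genes, 16.5% were called higher and 14.1% lower. The lists below are small, and nothing particular to a list is read from its count. Their median log2 fold change was 0.03.

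Genes of arginine and ornithine supply were higher or were not called. Of the 8 tested genes 4 were called higher and 0 lower, beside the 16.5% and 14.1% of all tested genes, and their median log2 fold change was 0.06. Arg1, the gene of arginase, which makes ornithine from arginine, had 7.40, 8.24 and 7.30 CPM in the CON libraries and 11.03, 12.6 and 11.2 CPM after sTREM-1. The groups were apart at this low level, and the log2 fold change was 0.60 with a standard error of 0.10 and an adjusted p of 1.2e-05 in the edgeR test. Oat, which interconverts ornithine and glutamate semialdehyde, rose from 85.8 ± 1.40 to 96.4 ± 1.89 CPM, a log2 fold change of 0.17. The arginine transporter Slc7a2 rose by a log2 fold change of 0.16, and Slc7a1, another arginine transporter, was not called, with 380 ± 10.6 and 387 ± 13.7 CPM. Nos2, the inducible nitric oxide synthase, had a log2 fold change of 0.10, from 597 ± 12.4 to 641 ± 38.4 CPM, but it was not called by DESeq2 or without sTREM-1 replicate 3, and the lowest log2 fold change over the refits was 0.05. Arg1, whose enzyme makes ornithine, was thus higher after sTREM-1, and Odc1, whose enzyme uses it, was lower.

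The polyamine transport genes went both ways. Of 4 tested genes 1 was called higher and 2 lower, where 30.5% of all tested genes were called in either direction, and the rest of the list did not pass the filter on low counts. Atp13a4, of the P5B ATPases to which polyamine transporters belong, had 66.4, 61.7 and 64.5 CPM in the CON libraries and 43.7, 40.1 and 47.3 CPM after sTREM-1. The groups were apart, and the log2 fold change was -0.56 with a standard error of 0.05 and an adjusted p of 1.9e-10 in the edgeR test. Atp13a2, the lysosomal polyamine exporter, rose from 134 ± 1.21 to 164 ± 3.45 CPM, and the log2 fold change was 0.29 with an adjusted p of 2.5e-09 in the edgeR test. Atp13a3 had a log2 fold change of -0.09, and its call was lost without CON replicate 3, with an adjusted p of 0.0636 in the edgeR test.

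S-adenosylmethionine, the source of the aminopropyl groups, is made by methionine adenosyltransferase, and the methylthioadenosine left over is salvaged back to methionine. The list of S-adenosylmethionine supply and methionine salvage also held Ahcy and Mtr, whose enzymes act outside these steps. Of its 10 tested genes 4 were called higher and 3 lower, against 16.5% and 14.1% of all tested genes. Of the higher calls, those of Ahcy and Mtr, with log2 fold changes of 0.11 and 0.12, were lost in 9 and 6 of 12 refits. Mat2b, a regulatory subunit of the transferase, rose from 46.3 ± 0.803 to 57.4 ± 2.42 CPM, a log2 fold change of 0.31. Mat2a, the gene of a catalytic subunit, was not called, with 3.38 ± 1.23 CPM in the CON group and 3.02 ± 0.415 CPM after sTREM-1. The log2 fold change of Mat2a was -0.16, so no rise of the transferase as a whole is read from Mat2b. Within the salvage route Enoph1 rose by a log2 fold change of 0.23, while Adi1 and Mtap fell, with log2 fold changes of -0.17 and -0.12, and Got1, a transaminase, had a log2 fold change of -0.18. The call of Enoph1 was lost without CON replicate 3, sTREM-1 replicate 1 or sTREM-1 replicate 3, with log2 fold changes of 0.20 to 0.28 over the refits, and that of Mtap without replicate 2 of either group, with -0.14 to -0.07. The counts of Apip, another salvage enzyme, were 4, 295 and 26 in the CON libraries and 369, 14 and 290 after sTREM-1, so that replicates of a group differed by more than 10 times. Apip was not called, but it was called in 4 of 11 refits, with log2 fold changes of 0.42 to 3.82, and no difference is read from it. Hypusine is made on eIF5A from spermidine, and none of the 3 tested genes of this step (Dhps, Dohh and Eif5a) was called, with log2 fold changes between -0.04 and 0.04. Eif5a had 10.1 ± 0.462 CPM in the CON group and 10.4 ± 0.721 CPM after sTREM-1. As for Oaz1, whether the counting lowered the reads of Eif5a and Mat2a was not tested.

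Odc1 is a known target of MYC. Myc had 52.1 ± 0.898 CPM in the CON group and 54.2 ± 1.43 CPM after sTREM-1, a log2 fold change of 0.06 (standard error 0.04), and neither Myc nor its partner Max was called. Of the 8 tested genes of the MYC network 3 were called higher and 0 lower, a share near the 30.5% of all tested genes that were called. These 3 encode repressors that are known to compete with MYC for MAX. Mxd1 rose from 76.2 ± 4.25 to 92.2 ± 3.24 CPM, Mxi1 from 102 ± 1.51 to 122 ± 2.85 CPM and Mnt from 77.0 ± 1.09 to 84.7 ± 1.05 CPM, with log2 fold changes of 0.27, 0.25 and 0.14. Mxd3, Mxd4 and Mga, of the same network, were not called, with log2 fold changes of 0.61, -0.09 and -0.02. Mxd3 was below 1 CPM in both groups. Whether Mxd1, Mxi1 and Mnt had a part in the level of Odc1 was not tested. MYC protein and the proteins of the viral oncogenes of the line were not measured. Among the paralogs, Sat2 had a log2 fold change of -0.38 and 4.94 ± 0.766 against 3.80 ± 0.326 CPM, with an adjusted p of 0.048 in the edgeR test that was lost in 7 of 12 refits, and Azin2 was below 1 CPM in both groups.

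**Figure D4:**
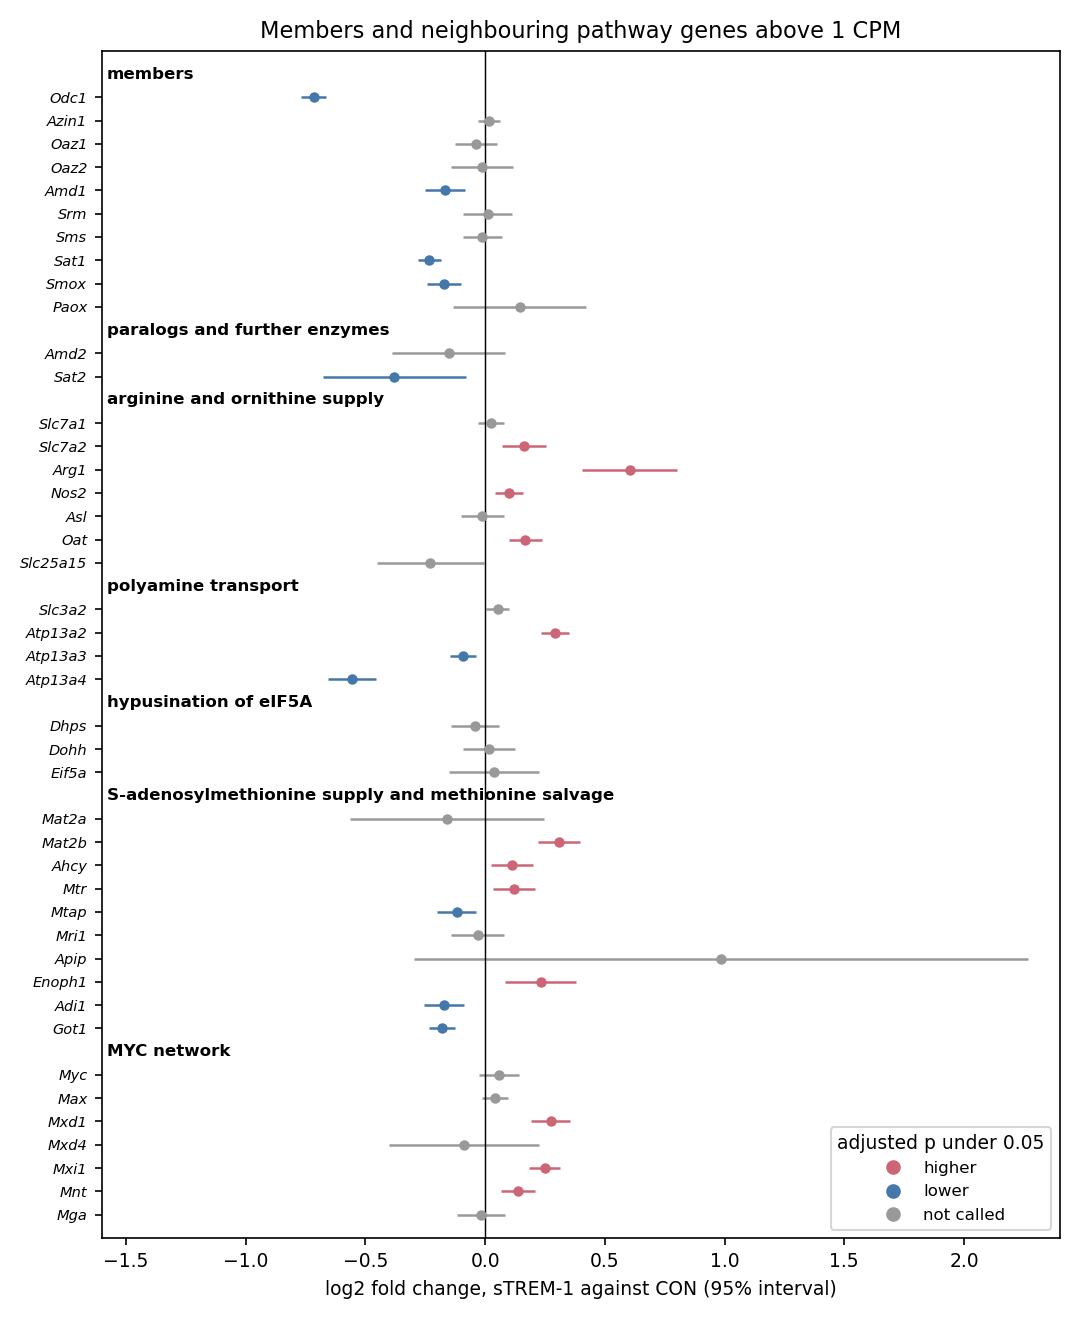
Log2 fold change of sTREM-1 against CON for the 10 polyamine genes and for the neighbouring pathway genes with a CON mean above 1 CPM, with 95% intervals from the quasi-likelihood fit. Red points were called higher, blue points lower and grey points were not called. The interval of Odc1 (-0.77 to -0.66) lies apart from those of all other members, and that of Arg1 lies on the opposite side of 0.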

How the data were processed

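RNA of 3 CON and 3 sTREM-1 libraries of BV2 cells was used, as the labels and the table give them, while the study's methods state a larger number of samples per group. According to the study's methods, the authors checked reads with FastQC, quantified them with RSEM as FPKM and used edgeR, and the submitters' processing notes name HISAT2 2.0.4 and the human builds hg19 and GRCh38. The deposited table holds whole-number read counts per mouse symbol, not normalized, of which 41483 of 46095 symbols were found in RefSeq GRCm38.p6. The annotation and use of strand are not given in the sources used here.

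Genes of low counts were removed by filterByExpr with its minimum set to 10. TMM factors and the quasi-likelihood F-test came from edgeR 4.0.16 (R 4.3.3), and the model had no covariates. Standard errors and 95% intervals come from the fold change and its F statistic. Coordinates and transcript lengths are those of GENCODE M21 (GRCm38). The members and lists were chosen with earlier results of these data known. Named genes were all members, their copies, genes of the lists (those called first, and others where a comparison needed them), and the 5 genes nearest to Odc1. Il1rn was named after its values were seen. The procedure was tested on simulated data. Alternatives were other scalings and filters, DESeq2 1.42.0, a replicate block, leaving out each library, a 1.5-fold minimum and, added after the data were seen, joining near-identical copies. No pair of libraries was a duplicate, since the chi-square of their counts divided by the number of genes was at least 3.45.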

Additional observations from a re-analysis of the deposited data

How the results depend on the processing

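The 4 members called lower kept this call in the 12 refits that changed the scaling, the filter, the tool or the libraries, and the other 6 members were called in none of them. The log2 fold change of Odc1 ran from -0.74 to -0.70. With at least a 1.5-fold change required as well, 1 member (Odc1) and 301 of all genes were called, against 4 and 4312. Without each library in turn, 4 members were called each time, 3608 to 3863 of all genes, and 14 to 17 genes of the neighbouring lists against 18. Of those, the calls of Ahcy, Sat2, Mtr, Enoph1, Nos2, Mtap and Atp13a3 were lost in 9, 7, 6, 3, 2, 2 and 1 of the 12 refits, and the cause was not tested. Apip, which was not called, gained a call in 4 of its 11 refits. With the replicate number as a block, 4613 of all genes and 4 members were called. Deviations of same-numbered libraries correlated at -0.0335 to -0.0137 across all tested genes. These values include genes of few reads and so cannot exclude a pairing by number, and nothing is concluded on it. The log2 fold changes of Oaz2, Srm and Sms changed sign when single libraries were left out, and no direction is given for them. Library totals in place of TMM moved the median log2 fold change of all genes from -0.0017 to -0.018, and 2026 genes were then called higher and 2280 lower, against 2324 and 1988. Depth limits Paox, Azin2 and other genes of few reads.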
